A study of Drosophila melanogaster with 3 samples.

Results

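Head-to-head pairs of protein-coding genes, in which 2 genes on opposite strands are transcribed away from a shared stretch of upstream DNA, were examined for binding of putzig in Drosophila embryos. A pair was taken when the minus-strand gene lay to the left and the 5′-most transcription start sites (TSSs) of both genes were 1 to 500 bp apart. This gave 1814 pairs, formed by 3481 of the 13945 protein-coding genes on the 6 chromosome arms, or 24.96% of them. The region of a pair was the interval between the TSSs plus 250 bp on each side. Of the 1814 regions, 1570 held at least 1 reproducible putzig summit (86.5%), and these are called bound pairs. The other 244 are called unbound pairs, which means only that none of the 6522 reproducible summits lay there. The rule used gene positions and no measured value.

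The samples were 3 biological replicates of 1 group: whole embryos of pooled male and female sex, 0 to 24 h old, from the transgenic line pzg-GFP, which stably expresses putzig (pzg) with GFP fused to its C-terminus. Sonicated chromatin of 200 to 800 bp was precipitated with the tagged protein as target and sequenced (ChIP-seq). All samples carry the transgene and come from a mixture of stages and cell types, so a summit cannot be assigned to a tissue or an hour of development. Free text names every library as input control, in conflict with its assay and antibody fields, and the labels do not resolve this. With 1 group there is no contrast between conditions to test. Pairs of genes are not replicates of each other, so no p-value is given, and shares are set beside their mean and standard deviation over the 3 replicates.

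Head-to-head promoters are common in the compact fly genome, and in Drosophila they often serve genes that most cells use. Promoters of this kind frequently carry the DNA replication-related element (DRE), bound by the transcription factor Dref and, at overlapping letters, by the insulator protein BEAF-32, or the core promoter element called Motif 1. Putzig, a protein with zinc fingers, has been found together with Dref and the TBP-related factor Trf2, and also with the nucleosome remodelling complex NURF.

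The sequences between the TSSs of 7 pairs show the kinds of promoter discussed here. The first 4 belong to the strongest bound pairs with a DRE (TATCGATA) or Motif 1 (GGTCACAC) in the interval or its flanks, with TSSs no more than 300 bp apart. Capitals mark these letters on either strand, and both TSS bases are left out. Each is the plus strand of dm6, 5′ to 3′, from the RefSeq genome, and the minus-strand gene is named first. The intervals are chr3R:12627830-12628030 for Vha55/Snx3, chrX:10768339-10768536 for Atg8a/BTBD9, chrX:8061437-8061644 for fs(1)h/mys and chr2L:10200975-10201003 for Ripalpha/RpL7.
Vha55/Snx3: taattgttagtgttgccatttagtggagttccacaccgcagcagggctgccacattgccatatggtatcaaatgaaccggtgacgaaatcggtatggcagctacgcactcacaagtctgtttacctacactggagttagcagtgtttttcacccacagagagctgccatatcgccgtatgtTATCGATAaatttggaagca
Atg8a/BTBD9: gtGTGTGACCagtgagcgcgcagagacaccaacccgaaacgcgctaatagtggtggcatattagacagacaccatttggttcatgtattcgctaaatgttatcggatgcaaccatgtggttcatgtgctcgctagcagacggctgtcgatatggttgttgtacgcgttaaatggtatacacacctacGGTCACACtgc
fs(1)h/mys: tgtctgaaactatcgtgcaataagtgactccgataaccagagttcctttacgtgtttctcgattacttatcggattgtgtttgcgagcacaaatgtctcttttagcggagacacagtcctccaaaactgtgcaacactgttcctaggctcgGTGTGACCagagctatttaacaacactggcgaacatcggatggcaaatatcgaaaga
Ripalpha/RpL7: cccactccgcggccaGTGTGACCgtttgg
In Vha55/Snx3 the DRE starts at base 182 of the 201, close to the TSS of Snx3, while the summit lies at base 51, on the side of Vha55. The DRE letters in the region of Atg8a/BTBD9 lie outside its interval, which holds Motif 1 at both ends, in opposite orientations. The interval of Ripalpha/RpL7 has only 29 bases, and its summit lies beyond it, inside RpL7.

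The next sequence is from a strongly bound pair with neither motif in its region (trbd/dmt, chr3R:9711038-9711141). The last 2 are from narrow unbound pairs of named gene lists: TTLL6B/TfIIA-L (chr3R:27251008-27251111) and Ugt304A1/Ugt303A1 (chr3R:11175409-11175528). They are shown because their length is like that of bound intervals although no reproducible summit lay there, and they are the plus strand of dm6 from the same source.
trbd/dmt: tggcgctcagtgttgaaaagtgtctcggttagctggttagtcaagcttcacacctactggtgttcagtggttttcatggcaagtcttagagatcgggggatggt
TTLL6B/TfIIA-L: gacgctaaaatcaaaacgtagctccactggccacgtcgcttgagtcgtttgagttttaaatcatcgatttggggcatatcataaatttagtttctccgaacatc
Ugt304A1/Ugt303A1: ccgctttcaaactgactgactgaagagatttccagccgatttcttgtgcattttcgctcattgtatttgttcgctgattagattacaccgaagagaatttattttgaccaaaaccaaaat
None of these 3 intervals holds TATCGATA or GGTCACAC, so the absence of both was shared by a strongly bound pair and by unbound ones.

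The strongest of all reproducible summits, and the second strongest, lay in head-to-head pairs. Peak signal is on a scale the deposited notes do not name and can be compared only within a list, so pairs are described by rank in each replicate's list of 30000 entries, where rank 1 is the strongest. Vha55/Snx3 ranked 1, 1 and 1 in replicates 1, 2 and 3. Vha55 encodes part of the proton pump of acidic vesicles, and Snx3 encodes an endosomal sorting nexin. Atg8a/BTBD9, with the ubiquitin-like protein of autophagosomes Atg8a, ranked 2, 2 and 4. The pair of fs(1)h, a BET bromodomain protein, and mys, a beta integrin, ranked 10, 9 and 3. Ripalpha/RpL7, which joins a protein that interacts with replication protein A to a cytosolic ribosomal protein, ranked 12, 13 and 5. These 4 pairs thus stayed between ranks 1 and 13 in every replicate, and replicate 3 moved fs(1)h/mys and Ripalpha/RpL7 up. Of the remaining strongest pairs, ATPsynF/CG3548 (a subunit of the mitochondrial ATP synthase) ranked 4, 6 and 7, and CG8414/Rho1 (a small GTPase of the actin cytoskeleton) ranked 21, 16 and 17. The pair trbd/dmt, which pairs a deubiquitinase with a protein of sister chromatid cohesion, ranked 19, 19 and 14. All 10 of the strongest pairs were within the first 32 entries of all 3 replicates.

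**Figure D1:**
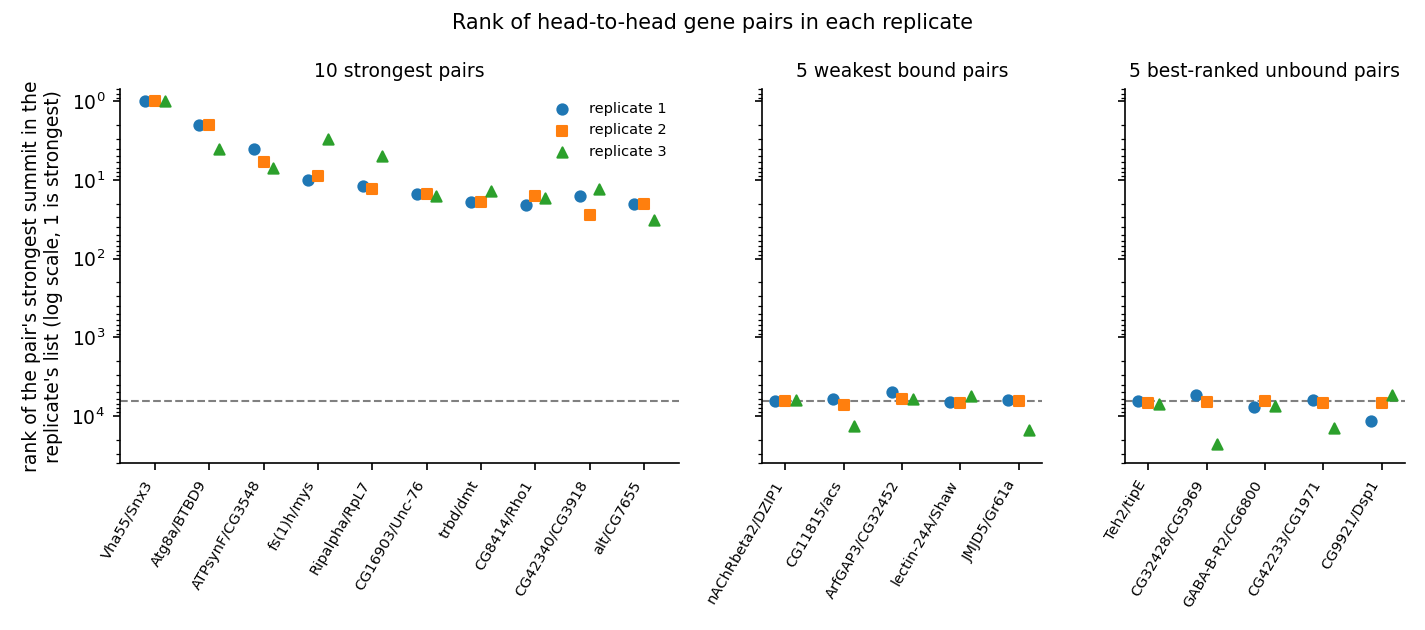
Rank of the strongest summit of each named pair in the list of each replicate, on a log axis with rank 1 at the top, for the 10 strongest bound pairs, the 5 weakest bound pairs and the 5 unbound pairs with the best rank in the pooled list. The dashed line is rank 6522, the length of the reproducible list; the strongest pairs sit at ranks 1 to 32 in each replicate, while the weakest bound and the best unbound pairs lie on both sides of the line.

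Near the limit of the list the replicates disagreed. The weakest bound pair was JMJD5/Gr61a, with a gustatory receptor gene, at ranks 6341, 6509 and 15212. The best-ranked unbound pair was Teh2/tipE, of 2 accessory proteins of the para sodium channel, at ranks 6456, 6731 and 6967. CG9921/Dsp1, with an HMG box protein, was also unbound, at ranks 11551, 6769 and 5339. So the values of pairs just inside and just outside the list overlapped. Over all pairs, those near the limit included, most calls recurred: 1533 of the 1570 bound pairs had a summit among the 6522 strongest of all 3 replicates, 34 in 2 and 3 in 1. Of the 244 unbound pairs, 234 had none in any replicate and 10 had one in a single replicate. In the pooled list of 30000 entries, which holds background by design, 46 of the unbound pairs had a summit, at a median rank of 11875, and 198 had none.

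Genes in head-to-head pairs had a summit at their start far more often than other genes. A summit lay within 250 bp of the 5′-most TSS in 76.1% of the 3481 paired genes, in 28.7% of the 10464 other coding genes and in 40.6% of all coding genes. The difference was 47.4 percentage points in the reproducible list and 47.2 ± 1.74 points (SD, n = 3) over the replicates. Windows of the same lengths as the pair regions, placed at the other genes, held a summit in 30.6%. The added length thus changed the share of the other genes little. The share of pair regions was 86.5%, but such a region spans 2 TSSs and each window was placed at 1. The paired share was 76.5, 76.4 and 73.4% in replicates 1, 2 and 3, against 28.3% of the other genes in each and 40.4, 40.3 and 39.6% of all coding genes. In the pooled list of any strength the shares were 79.7% of paired genes, 43.4% of the others and 89.1% of pair regions. By replicate, the share of pairs with a summit was 86.8, 86.3 and 85.0%, or 86.0% ± 0.940 (SD, n = 3). Replicate 3 gave the lowest share, and it also stood apart in the whole list: 6035 reproducible summits lay inside the strongest peaks of both replicates 1 and 2, 5368 of replicates 1 and 3 and 5358 of replicates 2 and 3.

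The pair regions together made up 0.935% of the sequence of the arms and held 1845 of the 6522 summits (28.3%). Their share was lower among weak summits. In 5 equal classes from the strongest to the weakest, it was 34.4, 34.4, 33.0, 26.2 and 13.5%. The strongest 100 summits included 37 in pair regions. Replicates 1 and 2 had 36.0 and 35.1% in their strongest class against 14.7 and 15.1% in their weakest. Replicate 3 peaked in the second class, at 33.4%, against 29.5% in the first and 13.6% in the last. Some loci contributed several pairs, since 204 pairs shared a gene with another. Merging overlapping regions gave 1690 loci, of which 1454 were bound (86.0%), close to the share of pairs. The gene mod(mdg4), which is trans-spliced and annotated here as many short genes, made 37 of the pairs, and all of these were bound.

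The 42 pairs of replication-dependent histone genes at the histone cluster on 2L were all unbound, and none had a summit even in the pooled list. These genes are tandem repeats of near-identical copies, so their values are uncertain. Their TSSs are 26 to 189 bp apart, so they count only among the narrow pairs. Without them 1570 of 1772 pairs were bound (88.6%).

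The share of bound pairs had no steady trend with the distance between the TSSs. Without the histone cluster, 92.8% of pairs with TSSs 1 to 100 bp apart were bound, 84.1% at 101 to 200 bp, 88.5% at 201 to 300 bp, 86.9% at 301 to 400 bp and 90.5% at 401 to 500 bp. The SD over replicates in these classes was 0.716 to 1.71 points, smaller than the gap between the highest and the lowest class. This SD measures repeated calls on the same pairs and not the variation between pairs within a class. The lowest share of any 50 bp class was 78.7% at 151 to 200 bp. Pairs up to 250 bp apart were bound less often than wider ones by 2.44 points with the histone genes, and more often by 1.67 points without them, and all 3 replicates had the same sign in each case. With only summits above the median signal and the histone genes kept, narrow pairs were bound more often by 7.71 points. The sign of this difference therefore depends on the histone cluster and on the length of the list.

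Single genes, in contrast, were covered less often the farther apart the TSSs were. Among directly neighbouring pairs outside the histone cluster, with no other coding TSS between them, 92.5% of genes had a summit within 250 bp of their own TSS at a spacing of 1 to 100 bp. This share was 84.4% at 101 to 250 bp, 70.8% at 251 to 400 bp, 60.8% at 401 to 450 bp and 63.0% at 451 to 500 bp. Up to 250 bp 1 summit between the TSSs reaches both windows by construction. At 1 to 100 bp, both genes were covered in 92.0% of pairs and only 1 of them in 0.831%, whereas at 451 to 500 bp both were covered in 34.8% and only 1 in 57.1%. Beyond the limit of the rule the decline went on without a step at 500 bp: 58.1% at 501 to 550 bp, 62.0% at 551 to 600 bp, 47.5% at 601 to 750 bp, 43.0% at 751 to 1000 bp and 27.5% at 1001 to 2000 bp. The last value is close to the 28.7% of genes outside the pairs, and genes 5001 to 20000 bp apart were at 15.9%.

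**Figure D2:**
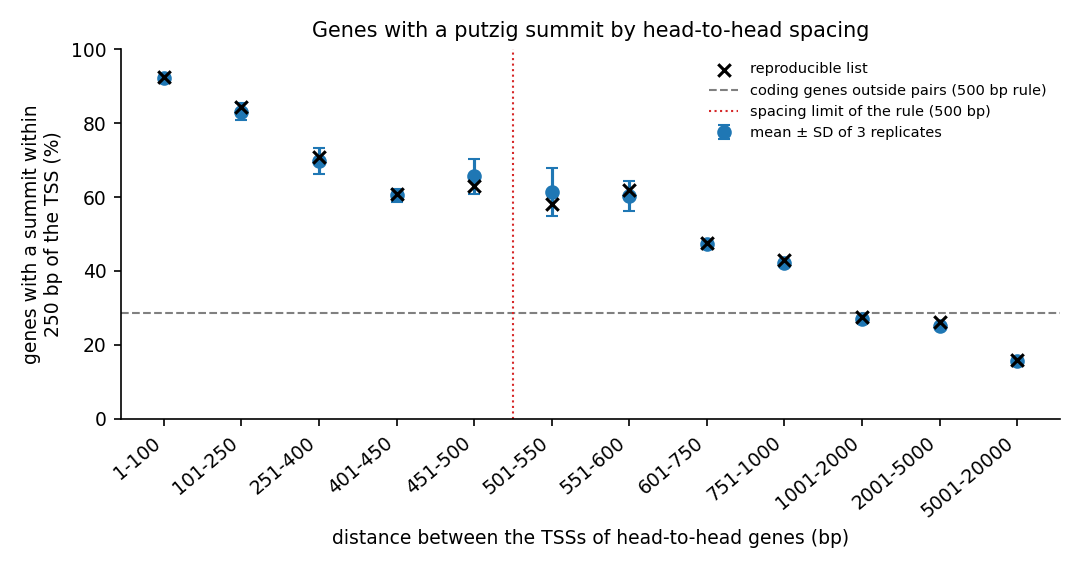
Share of genes with a summit within 250 bp of the 5′-most TSS (percent) for directly neighbouring head-to-head genes by the distance between their TSSs, histone cluster left out; points with bars are the mean ± SD of 3 replicates and crosses the reproducible list. The share fell from 92.5% at 1 to 100 bp to 27.5% at 1001 to 2000 bp, near the dashed line at 28.7% for coding genes outside the pairs, with no step at the dotted line, the 500 bp limit of the rule.

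Summits lay between the TSSs rather than inside the genes. The strongest summit of the bound pairs was between the TSSs in 1280 of 1570 (81.5%), although that interval made up 32.6% of the region length. Over the replicates the share was 79.7% ± 3.40 (SD, n = 3), and replicate 3 was lowest at 75.7%. Of the rest, 151 summits lay on the side of the minus-strand gene body and 139 on the side of the plus-strand one. In all, 784 strongest summits were nearer to the minus-strand TSS, 784 nearer to the plus-strand TSS and 2 midway. Counting every summit entry in the regions, 1494 of 1988 (75.2%) were between the TSSs.

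In narrow pairs the strongest summit lay close to both TSSs, and in wide pairs it stood at one of them. At 1 to 100 bp it was between the TSSs in 220 of 336 bound pairs (65.5%), and at 401 to 500 bp in 187 of 219 (85.4%). For spacings of 1 to 100 bp, 122 of the 220 strongest summits between the TSSs (55.5%) were in the middle one of 3 equal parts. This fell to 51.1% at 101 to 200 bp, 29.5% at 201 to 300 bp, 12.9% at 301 to 400 bp and 4.28% at 401 to 500 bp. In the last 3 of these classes replicate 3 was lower, at 13.6, 6.0 and 1.82%, than replicate 1 (31.9, 13.8 and 4.62%) and replicate 2 (29.1, 14.4 and 4.30%), and in each replicate the share fell across these 3 classes. The median distance to the nearer TSS changed much less, from 21 bp at 1 to 100 bp to 47, 61, 52 and 49 bp in the wider classes. A summit at such a distance can lie in the middle part of a short interval but not of a long one. The fall is therefore not a measure of centring. The distance to the farther TSS rose from a median of 50 bp to 406 bp over the same classes. In the 1533 pairs found in all replicates, the position of the strongest summit had a median SD of 12.2 bp over the replicates and lay within a range of 50 bp in 77.4%. That spread is small against the distance to the farther TSS in wide pairs. Over the replicates the median distance to the nearer TSS was 21.2 ± 0.289 bp (SD, n = 3) at 1 to 100 bp. It was 45 ± 1 bp at 101 to 200 bp, a rise larger than these SDs. In the 3 wider classes it was 57.2 ± 9.93, 48.2 ± 8.43 and 42.3 ± 16.8 bp, so these were not told apart.

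**Figure D3:**
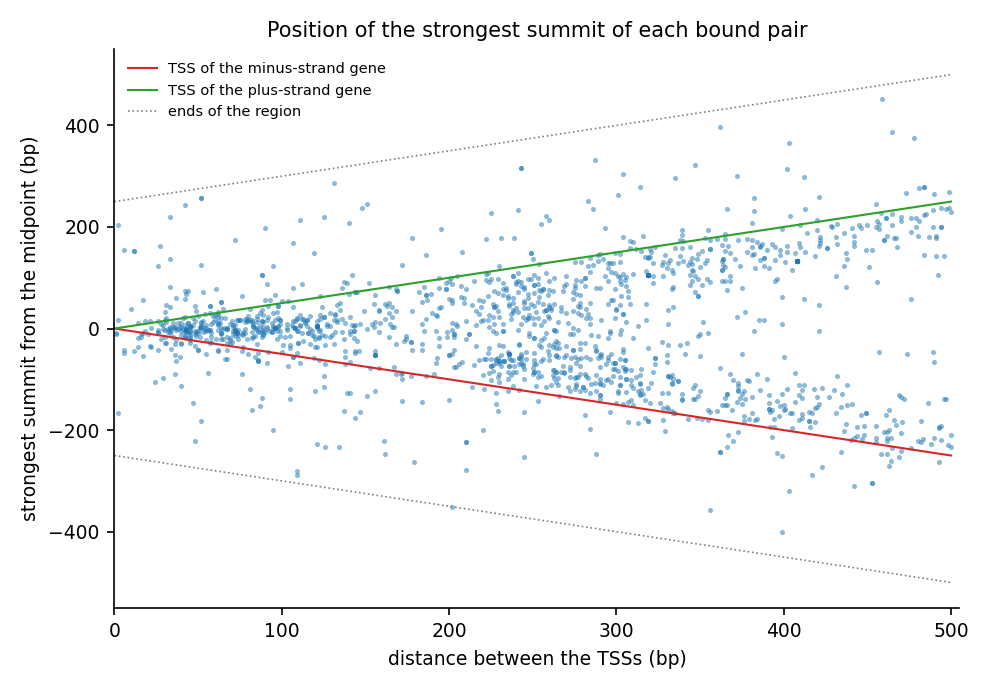
Distance of the strongest reproducible summit from the midpoint between the TSSs (bp, negative towards the minus-strand gene) against the distance between the TSSs (bp), 1 point per bound pair (1570), with lines for both TSSs and dotted lines for the ends of the region. Summits form 1 band around the midpoint in narrow pairs and 2 bands just inside the TSSs in wide pairs, with 784 nearer to each strand's gene.

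The widest and narrowest bound pairs show this in single cases. In su(Hw)/Polr2I, which joins an insulator protein to a subunit of RNA polymerase II with TSSs 500 bp apart, the summit lay 479, 479 and 489 bp from the su(Hw) TSS in replicates 1 to 3, at Polr2I. In Plzf/PLCXD, also 500 bp wide, it lay 45, 28 and 10 bp from the TSS of Plzf. Both therefore had a summit at 1 gene in every replicate, on opposite strands. The narrowest bound pairs, CG4730/CG5039 and Atg6/Pisd, had TSSs 1 bp apart, and dpa/didum, with the replicative helicase subunit Mcm4 and myosin V, had them 2 bp apart. In dpa/didum the summit lay 156 to 197 bp inside dpa in the 3 replicates, so a shared start did not always carry the summit.

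Most bound pairs held 1 summit (1162), while 398 held 2 and 10 held more. The share with more than 1 rose with spacing, from 11.6% of bound pairs at 1 to 100 bp to 40.6% at 401 to 500 bp. Wider pairs have longer regions with more room for summits, so part of this rise is built in. The share at equal region length was not computed. Of the 398 pairs, 152 had their 2 summits in separate called intervals, with a median gap of 276 bp, and in 144 of these each summit was nearer to its own gene. The left summit was the stronger in 120 of the 152. The other 246 had both summits in 1 called interval. There each summit was nearer to its own gene in 193, and the left summit was the stronger in 240. Such intervals elsewhere in the list had the same asymmetry, 177 of 185. No summits of the list were closer than 199 bp, and 168 of the 246 gaps were no larger than 210 bp. The side of the strongest summit went with the number of summits. In pairs with 1 summit it was nearer to the plus-strand TSS in 692 and to the minus-strand TSS in 468, while in pairs with more it was 92 and 316. The even split over all bound pairs is thus the sum of 2 opposite skews, and no preference for a strand was read from either. Replicates also differed in these counts: 259, 372 and 13 pairs had 2 summits in 1 interval in replicates 1, 2 and 3.

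Median signal at pairs was modestly higher than at other bound genes over the whole list. The strongest summit of a bound pair had a median signal of 1638 and that of a bound gene outside the pairs 1369, a ratio of 1.20. The pair value is the maximum over a region with 2 TSSs, and the other the maximum within 250 bp of 1 TSS. The longer region can raise the pair value by construction, and a ratio at equal windows was not computed. The ratio was 1.23, 1.18 and 1.06 in replicates 1, 2 and 3, or 1.16 ± 0.0890 (SD, n = 3). With only summits above the median signal of the list it turned to 0.973. The distributions differed mostly at the low end: the 10th percentile was 672 for pairs and 405 for the other genes, while the 90th was 3710 and 3672. Narrow pairs had more signal than wide ones, with medians of 1871 up to 250 bp and 1400 above it. Pairs with 1 summit had a median of 1801 and those with more 1345. Signal is not in reads here, so these ratios cannot be read as ratios of binding.

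Bound pairs carried the DRE and Motif 1 far more often than unbound ones. TATCGATA, searched on both strands and reading the same on each, was in 26.6% of bound and 4.10% of unbound regions, a difference of 22.5 points and of 22.5 ± 0.812 (SD, n = 3) over the replicates. With only summits above the median signal the difference was 11.1 points. GGTCACAC, on either strand, was in 24.9% and 0.820%. Read from the pairs, 417 of 427 with a DRE (97.7%) and 391 of 393 with Motif 1 (99.5%) were bound, against 83.1 and 83.0% without each. The letters in reverse order have the same base composition. For the DRE (ATAGCTAT) they were in 1.97% of bound and 0.410% of unbound regions, and for Motif 1 (CACACTGG) in 6.69 and 0.820%. Of pairs with these reversed letters, 31 of 32 and 105 of 107 (98.1%) were bound. CACACTGG can overlap a Motif 1 site, since both hold CACAC, so it is not a neutral control. Neither the DRE nor Motif 1 was in the region of 834 bound pairs (53.1%), so most bound pairs did not hold these exact letters. Both were in 72.

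In windows of equal length the motifs were also more frequent at pairs than at other bound genes, although a window on a pair can hold both promoters. In 501 bp around the midpoint the DRE was in 25.9% of bound pairs, and in 501 bp around the TSS it was in 19.6% of other bound genes, 1.77% of other unbound genes and 9.90% of all coding genes. Motif 1 was in 23.7, 17.7, 1.06 and 8.47%. An E-box of the letters CAGCTG was in 36.4, 31.2, 21.2 and 26.1%, and its reversed letters GTCGAC were less frequent in each group. The TATA box letters TATAAAA, on both strands, marked no difference in whole regions without the histone cluster, with 37.96% of bound and 39.6% of unbound pairs. Bound pairs with these letters had less signal than those without, at a ratio of medians of 0.760 and of 0.791, 0.767 and 0.781 in the replicates. The reversed letters AAAATAT gave ratios of 0.820 and of 0.833, 0.828 and 0.827. More of the wide pairs hold TATAAAA (46.8% of bound pairs over 250 bp against 29.0% up to 250 bp). The same holds for AAAATAT (67.1 against 43.2%). Spacing itself went with signal, and the part of the motif was not tested.

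**Figure D4:**
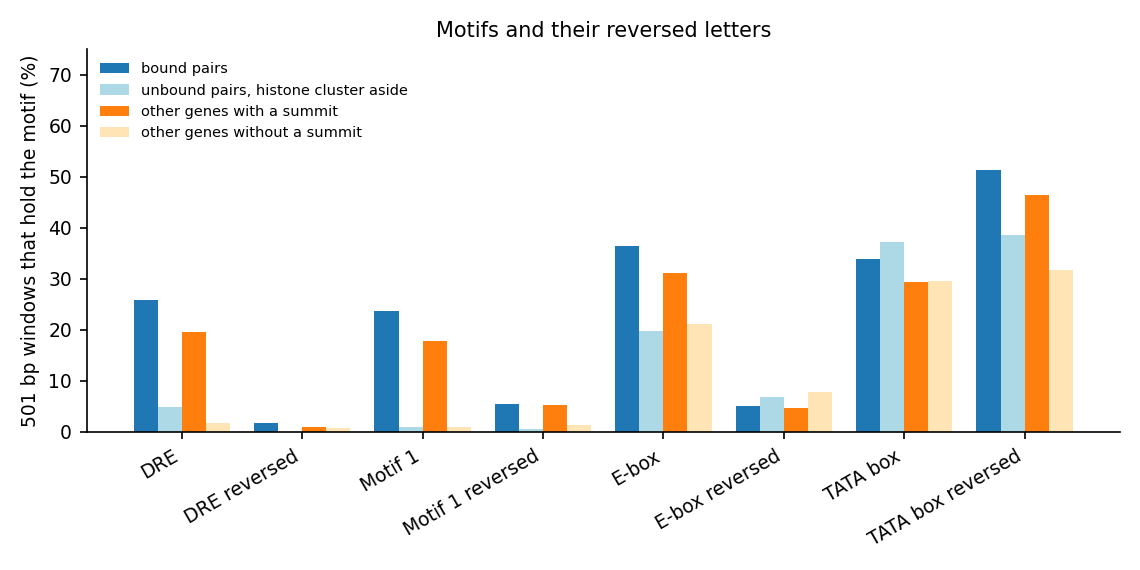
Share of 501 bp windows (percent) that hold each motif or its reversed letters on either strand, around the midpoint of bound pairs and of unbound pairs without the histone cluster, and around the 5′-most TSS of coding genes outside the pairs with and without a summit. The DRE was in 25.9% of bound and 4.95% of unbound pairs, while its reversed letters were rare in all groups.

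Of the motifs measured, the DRE lay nearest to the strongest summit. Of 484 DRE sites in bound regions, 357 (73.8%) were between the TSSs, which made up 32.6% of the length, and the nearest site was a median of 44.5 bp from the strongest summit. The median was 59.5 bp for Motif 1, 102 bp for CAGCTG and 129 bp for TATAAAA. For the reversed letters of the DRE it was 69.5 bp, in only 31 pairs. Motif 1 sites lay at the TSSs, a median of 18.5 bp from the nearer one, with 40.4% of 433 sites between the TSSs. In pairs over 250 bp wide with 1 summit and the motif on 1 side of the midpoint, the DRE was on the side of the summit in 71 and on the other in 38. The counts were 70 and 41, 71 and 36, and 71 and 45 in the 3 replicates. For Motif 1 they were 74 and 37 in the reproducible list. For TATAAAA they were 86 and 80. Vha55/Snx3, the strongest pair, had its DRE on the side away from the summit, as the sequence above shows. More than 1 DRE did not go with more signal: the median was 1598 in bound pairs with none, 1827 with 1 and 1537 in the 61 with more.

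Pairs were then grouped by gene function with name-based lists. General lists held ribosomal, proteasome, splicing, replication, transport and similar genes, named for processes that most cells use. Being name-based, they also took in second copies of such genes, for example eIF3d2, TfIIA-S-2, Vha36-3 and ATPsynbetaL. Restricted lists held receptors, cuticle, digestive and similar genes used by few cells. Of 485 pairs with at least 1 general gene, 472 were bound (97.3%), including all 48 with 2. Of 39 pairs with a restricted gene, 18 were bound, and none of the 11 with 2. The remaining 1248 pairs outside the histone cluster, with no gene in a list, were bound in 86.5%. The general genes are themselves often paired: 49.9% of the 1032 were in a head-to-head pair, against 7.67% of the 626 restricted genes.

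The share of genes bound at their own start differed between paired and unpaired genes within the lists too. Among general genes it was 91.3% of paired and 78.9% of unpaired ones, and 90.8% ± 0.996 and 77.4% ± 0.886 (SD, n = 3) over the replicates. Among genes in no list it was 76.7 and 27.7%, and 76.0% ± 1.93 and 27.3% ± 0.0618 over the replicates. The gap was thus 12.3 points in the general lists and 49.0 points in genes of no list. Some general lists had the opposite order: 87.9% of 33 paired and 96.2% of 53 unpaired cytosolic ribosomal protein genes were bound, and 92.3% of 52 and 100% of 23 mitochondrial ones. The largest gaps among the general lists were at mitochondrial import and assembly (7 of 7 paired and 8 of 18 unpaired), the proteasome (18 of 20 and 14 of 28), the vacuolar proton pump (9 of 11 and 10 of 22) and the oxidative phosphorylation subunits (30 of 35 and 32 of 57). The part of second copies in the gaps of the general lists was not tested.

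**Figure D5:**
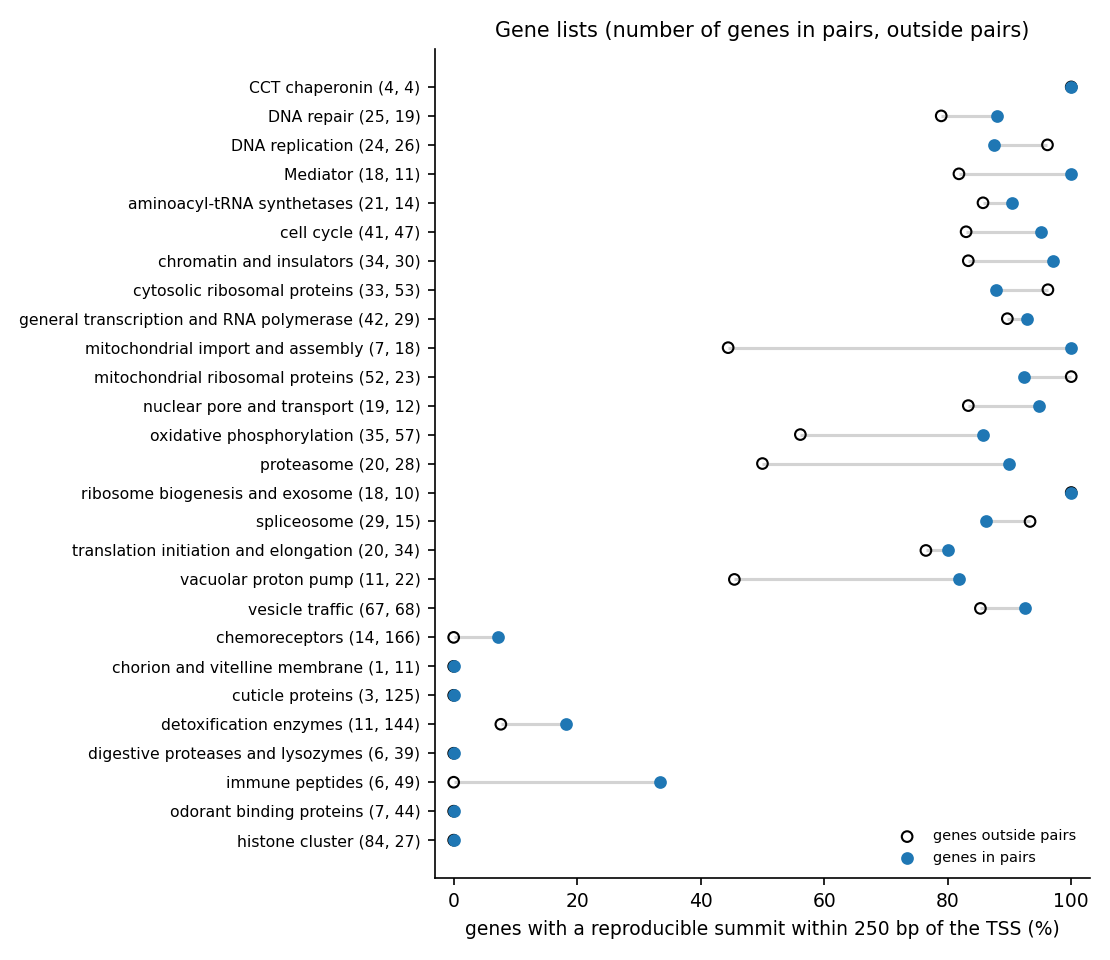
Share of genes with a reproducible summit within 250 bp of the 5′-most TSS (percent) in each gene list, for genes in head-to-head pairs (filled) and outside them (open), with the number of each in brackets. General lists lie between 80.0 and 100% for paired genes, and lists of genes used by few cells at 33.3% or less.

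Pairs with ribosomal protein genes were nearly all bound, as were 97.3% of pairs with a general gene. Of all pairs outside the histone cluster 88.6% were bound. All 53 pairs with a mitochondrial ribosomal protein were bound, as were 33 of 34 with a cytosolic one. Of 21 pairs with a translation initiation or elongation factor 19 were bound (90.5%), close to the share of all pairs. Nelf-E/RpL14, which joins a subunit of the negative elongation factor to a ribosomal protein, ranked 31, 21 and 31 in the replicates. The pair mRpL47/Kdm3, with a mitochondrial ribosomal protein, ranked 26, 25 and 39. CG4294/RpS16 was the unbound exception, with a summit in replicate 3 alone, at rank 10191, and a DRE in its region. Of 23 pairs with an aminoacyl-tRNA synthetase, which charge tRNAs, 22 were bound, and Lfg/AspRS had one in the pooled list alone, at rank 19682.

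Several nuclear gene groups had no unbound pair, but this was not particular to them. Of pairs with a general gene 97.3% were bound, and of all pairs outside the histone cluster 88.6%. All 8 pairs with a mitochondrial import or assembly gene and all 5 with a CCT chaperonin gene were also bound. Among other nuclear lists, general transcription and RNA polymerase had 41 of 43 pairs bound and cell cycle 40 of 41. All 24 pairs with a DNA replication gene, 34 with a chromatin or insulator gene, 29 with a spliceosome gene, 18 with a Mediator subunit and 25 with a DNA repair gene were bound. CG31344/Caf1-55, with a histone chaperone that is also a subunit of NURF, ranked 164, 130 and 280. Arpc1/Orc5, with a subunit of the origin recognition complex, ranked 248, 210 and 331. The region of Set, a histone chaperone, was shared by 2 pairs, with Su(var)3-9 and with eIF2gamma. It ranked 291, 365 and 160 and held 3 DREs. These regions were at similar ranks in the 3 replicates, far above the limit of the list.

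The genes pzg and Dref, and some other genes picked by name, are head-to-head genes themselves. The region of pzg, paired with CG12974, ranked 205, 268 and 544, and the summit lay 25, 47 and 53 bp from the TSS of CG12974 with TSSs 137 bp apart. Dref, paired with RpL13, ranked 1113, 921 and 2161, and its region held no DRE. Mi-2/Prp3, with a chromatin remodelling ATPase and a splicing factor, ranked 1174, 1042 and 1207. Chro/Ssl1, with the interband protein Chromator, ranked 1250, 1241 and 2307. Cp190/CG4338, with an insulator cofactor, ranked 1356, 1494 and 1656, and chif/CG4455 ranked 3174, 3312 and 3421. All lay within the 6522 strongest of every replicate, as did 1533 of all 1814 pairs (84.5%). The calls therefore do not set these pairs apart from head-to-head pairs in general. Trf2, BEAF-32, Iswi and E(bx) were in no pair under the rule.

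Restricted genes with a bound region had the summit at the partner. In 16 of the 18 bound pairs the strongest summit was nearer to the TSS of the other gene. These 18 pairs held 17 distinct summits, since CG17768/Ir31a and LSm-4/Ir31a shared one. In GstO1/foi, a detoxification gene beside a zinc transporter, the summit lay 365 bp from GstO1 and 13 bp from foi, and the pair ranked 748, 752 and 660. In Gr63a/Lamtor4, a carbon dioxide receptor beside a subunit of the Ragulator complex, it lay 260 bp from Gr63a and 37 bp from Lamtor4, with ranks 971, 749 and 698. In Drsl6/kst, an antimicrobial peptide family gene beside a heavy spectrin, it lay 383 bp from Drsl6 and 59 bp from kst. These pairs were bound by the rule although the restricted gene had no summit near its own start. The exceptions were PGRP-LE/sd and Myt1/PGRP-LD, both with a peptidoglycan recognition protein. Only 5 of 48 paired restricted genes (10.4%) had a summit within 250 bp of their own TSS, against 11 of 578 unpaired ones (1.90%). In the general lists the strongest summit was nearer to the list gene in 227 pairs and nearer to the partner in 196.

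Unbound pairs differed from bound ones in the genes they held. Without the histone cluster, genes of unbound pairs had a median length of 1434 bp and 59.6% carried only a CG number as a name, against 2318 bp and 31.6% in bound pairs. The pairs Gr59e/Gr59f (gustatory receptors), epsilonTry/betaTry (trypsins) and Obp58c/Obp58d (odorant binding proteins) had no summit in any replicate's list. Other unbound pairs of restricted genes had one in a single replicate at a low rank, such as Gr58b/Gr58a at 26078 in replicate 1 and Ugt304A1/Ugt303A1 at 19105 in replicate 2. All 5 pairs of the Eig71E genes, a cluster induced late by ecdysone, and the pair of salivary glue genes Sgs8/Sgs7 were unbound with no summit in the pooled list. These 6 pairs were named after their values were seen. Among the 13 unbound pairs with a general gene, several held a second copy of a gene: eIF3d2, eIF3g2, TfIIA-S-2 and Vha36-3 were unbound in their pairs, while eIF3d1, eIF3g1, TfIIA-S and Vha36-1 each had a summit at their start. ATPsynbetaL was unbound in its pair too, but ATPsynbeta, outside the pairs, also had no summit at its 5′-most TSS. All 3 pairs with Prosalpha1 or Prosalpha1R were unbound, but these genes are near-identical copies and their values are uncertain. TTLL6B/TfIIA-L, with the gene of a large subunit of the general factor TFIIA, was unbound with no summit in any list.

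The share of bound pairs was similar on the large arms. Without the histone cluster it was 88.3% on 2L, 86.4% on 2R, 85.3% on 3L, 91.2% on 3R and 91.5% on X, with an SD over replicates of 0.350 to 2.04 points. Chromosome 4 has only 5 pairs, of which 4 were bound. On the same arms 27.0 to 33.5% of genes outside the pairs had a summit, so the gap between paired and other genes was present on each.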

How the data were processed

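Putzig-eGFP ChIP-seq of 3 biological replicates of 1 group was analysed from 5 deposited narrowPeak lists, 1 per replicate, 1 pooled, and the reproducible set that passed the IDR (irreproducible discovery rate) threshold. Peaks came from each replicate's alignment and a shared control alignment on dm6, per the deposited notes. The sources used here name neither aligner nor peak caller. Per list, the authors' signal column has no named scale and was compared only within a list. The deposited −log10 q value was used for 1 alternative, and the authors' summit offset from the peak start (the other column used) gave 1-based positions. Read depth is unknown, so precision is the spread over the 6522 strongest entries of each replicate's list of 30000. The reproducible list derives from the pooled reads and is not independent of the replicates.

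TSSs came from the Ensembl release 115 annotation of the same assembly and sequence from RefSeq, in which 99.9% of 16213 annotated start codons read ATG. No peak passed a chromosome end. Shares, medians and exact motif matches were computed with Python 3.11.15, numpy 2.4.6 and pandas 2.3.3. Pair finding, counting and motif search were tested on simulated data. No test was run, since the design has 1 group.

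Members, gene lists and motifs were chosen with earlier results of these data known. Named pairs are the 10 strongest, the 5 weakest bound, the 5 unbound pairs with the best pooled rank and the 3 narrowest and 3 widest bound. They also include, per list, up to 3 bound by signal and 3 unbound by spacing. Pairs with pzg, Dref, Trf2, Chro, BEAF-32, Cp190, Iswi, E(bx), chif or Mi-2 were named too. The text gives part of these. Sequences come from pairs outside 2R with TSSs no more than 300 bp apart. Alternatives covered the peak set, replicates, flank, TSSs, spacing limit, histone cluster, multiple summits, shared genes and motif.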

Additional observations from a re-analysis of the deposited data

How the results depend on the processing

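No paired analysis was possible because the series has 1 group. Of 63 alternatives 22 moved a value by less than 1 SD over the replicates, 38 by more, and 3 changed its sign or side of 1. The share of bound pairs was 64.7% with reproducible summits above the median signal (3261 summits), 87.5% with pooled summits at a q value of 0.05 or less, 84.3% with a flank of 100 bp, 88.6% without the histone cluster, and 85.3 and 82.5% with spacing limits of 250 and 1000 bp. It was 82.5 to 86.2% without 1 replicate. Paired minus other genes was, in that order, 37.8, 44.1, 32.9, 49.2, 49.3 and 43.5 points, 54.9 points with a flank of 500 bp and 43.4 to 47.7 without 1 replicate. Within the general lists alone, chosen after seeing the data, it was 12.3 points.

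Narrow minus wide pairs turned from -2.44 to 7.71 points with summits above the median signal and to 1.67 without the histone cluster, whose pairs are all narrow and unbound. It was -4.83 and -1.78 with flanks of 100 and 500 bp, -1.55 with any annotated TSS, -3.55 without pairs that share a gene or hold another coding TSS, and -2.32 to -2.05 without 1 replicate. Summits between the TSSs were 85.1 and 71.2% with summits above the median and pooled ones, 81.3% with a flank of 100 bp, 66.4% up to 250 bp, 78.8% with the strongest summit of each interval and 75.8 to 78.8% without 1 replicate.

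The signal ratio fell to 0.973 above the median signal, where both groups lose their weak summits by construction. It was 1.37 up to 250 bp and 1.14 to 1.15 without 1 replicate. The DRE difference was 11.1 and 23.9 points with summits above the median and pooled ones, 21.1 and 23.7 with flanks of 100 and 500 bp, 21.6 without the histone cluster, 28.1 with ATCGAT and 20.4 to 22.7 without 1 replicate. Where no cause is named, the cause was not tested. Lists without 1 replicate still come from the pooled reads, and unknown depth limits what an unbound pair can mean.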
